A study of Homo sapiens with 12 samples.

Results

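The comparison described here set 3 libraries of MCF10-A cells that made p21 for 5 days against 3 libraries of MCF10-A cells that made the fluorescent protein mVenus for the same time. The members were chosen by their titles alone, and they are 6 of the 12 libraries of the series. MCF10-A is an established, non-tumorigenic human mammary epithelial cell line. The p21 cells carried mVenus fused to p21 and the control cells carried mVenus without a fused protein, both under a promoter that responds to doxycycline; the fusion is written mVenus-21 in the labels of these libraries. Every group received 50 ng/ml doxycycline from 20 hours after seeding 150000 cells per well, and DMSO was added 24 hours later. Cells were at passage 12 to 15, and medium was renewed every 48 hours. The other 6 libraries came from cells that made mVenus fused to p16 with DMSO or with 100 nM Torin2; of these, the 3 with DMSO (called p16 cells) were used for a direct test of where p21 cells differed. The series text calls the replicates biological, and whether each line was a clone or a pool was not stated in the sources used here. The study asked about DNA damage signalling and DNA repair in cells that had stopped dividing.

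The protein p21 binds complexes of cyclins with cyclin-dependent kinases and blocks their activity. The retinoblastoma family of proteins then keeps its low phosphate state, E2F factors and the MuvB-containing DREAM complex repress genes of DNA replication and of mitosis, and cells leave the cell cycle. In epithelial cells a lasting arrest of this kind is one route to senescence, a state known for loss of lamin B1, a larger lysosome compartment and a secretory programme. The gene CDKN1A encodes p21 and is itself a classical target of the transcription factor p53.

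Messenger RNA was selected by its poly(A) tail, and the deposited values are whole-number read counts per gene. Assigned counts ran from 13168749 to 18321114 per library, and 14504 genes passed the filter on low counts and were tested. Levels are in CPM, counts per 1000000 of a library after scaling for its composition; values in a sentence follow replicates 1, 2 and 3 of each group. A log2 fold change is given with its standard error (SE), is p21 minus mVenus unless another pair is named, and comes from the edgeR quasi-likelihood test with Benjamini-Hochberg adjustment over all genes tested. A gene is said to have risen or fallen only where that adjusted p was under 0.05. Replicates of the p21 and of the mVenus group correlated across genes with r of 0.993 to 0.994 (p16 replicates 0.992 to 0.993), and a chi-square test found their counts to vary beyond counting error, so that no library was a copy of another. Mitochondrial transcripts took 6.08% to 6.98% of counts in p21 libraries and 3.85% to 3.91% in mVenus libraries. Some genes that every cell uses were nearly uncounted in every library: the ribosomal protein gene RPS18 had 0, 0 and 1 counts in p21 cells and 1, 0 and 0 counts in mVenus cells, and the actinin gene ACTN4 had 1, 1 and 1 counts in p21 cells and 2, 2 and 1 counts in mVenus cells. A count near 0 in all libraries therefore does not show that a gene was silent in these cells.

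Promoters of genes that fell most are shown first, because they hold letters of motifs known from cell cycle promoters. Promoter sequences are those of RefSeq on GRCh38.p14, from 250 bases before to 50 bases after an annotated start, read 5′ to 3′ on the strand of the gene. The motifs searched on both strands were the cell cycle homology region (CHR, TTTGAA or TTTAAA, bound by DREAM), an E2F site (TTTCCCGC, TTTGGCGC, TTTCGCGC or TTTGCCGC) and the CCAAT box bound by NF-Y. Given are the 2 genes with the largest falls among those with a match in the promoter table for mitosis (DLGAP5, a spindle protein, and KIF2C, a kinesin of the centromere) and for DNA replication (MCM10, a factor that starts forks, and TK1, thymidine kinase). Capitals mark every match to a motif, and no 2 matches share a base. The windows are DLGAP5 at chr14:55191536-55191835 on the minus strand, KIF2C at chr1:44739587-44739886 on the plus strand, MCM10 at chr10:13161308-13161607 on the plus strand and TK1 at chr17:78187155-78187454 on the minus strand; TK1 has a further annotated start.
DLGAP5: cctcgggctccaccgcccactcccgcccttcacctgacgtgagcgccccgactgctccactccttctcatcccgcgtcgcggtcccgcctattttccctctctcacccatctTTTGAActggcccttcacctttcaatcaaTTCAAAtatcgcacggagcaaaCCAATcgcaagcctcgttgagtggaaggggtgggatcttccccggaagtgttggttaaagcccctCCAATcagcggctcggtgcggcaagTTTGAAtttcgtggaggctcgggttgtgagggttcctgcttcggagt
KIF2C: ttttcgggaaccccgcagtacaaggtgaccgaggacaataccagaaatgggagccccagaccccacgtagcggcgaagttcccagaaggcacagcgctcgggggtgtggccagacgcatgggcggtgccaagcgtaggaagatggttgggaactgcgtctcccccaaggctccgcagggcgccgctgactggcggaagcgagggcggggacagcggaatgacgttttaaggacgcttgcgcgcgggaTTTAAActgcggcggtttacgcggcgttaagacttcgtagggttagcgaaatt
MCM10: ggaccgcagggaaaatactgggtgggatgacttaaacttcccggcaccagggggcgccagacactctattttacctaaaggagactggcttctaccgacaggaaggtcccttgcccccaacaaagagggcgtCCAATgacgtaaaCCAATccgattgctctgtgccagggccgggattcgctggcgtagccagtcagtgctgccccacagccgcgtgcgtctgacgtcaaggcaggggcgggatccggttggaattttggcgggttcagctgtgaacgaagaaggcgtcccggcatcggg
TK1: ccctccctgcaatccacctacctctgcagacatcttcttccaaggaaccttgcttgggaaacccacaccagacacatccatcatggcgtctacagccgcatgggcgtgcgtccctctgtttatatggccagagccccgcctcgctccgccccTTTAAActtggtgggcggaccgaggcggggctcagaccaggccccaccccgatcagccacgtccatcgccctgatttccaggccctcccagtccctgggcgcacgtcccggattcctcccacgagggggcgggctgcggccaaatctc
The KIF2C promoter holds TTTAAA across the start, and DLGAP5 holds TTTGAA just after it along with 2 CCAAT boxes upstream. The MCM10 window holds 2 CCAAT boxes and the TK1 window 1 match to the CHR, and in neither are the searched E2F letters present. Of the 14504 genes tested, 10059 had a promoter in the table, and shares of tested genes are of these. Among genes of the G2 and mitosis list, 51 of 62 with a promoter in the table had the CHR letters (82.3%). The share was 21.5% of tested genes and 27.9% of all 27305 genes in the table. CCAAT was in 79.0% of these genes, 43.1% of tested genes and 39.7% of all genes. The E2F letters were in 9.68% of these genes, 6.53% of tested genes and 3.99% of all genes. The DNA replication list had the other pattern, with E2F letters in 24 of 51 genes (47.1%), CHR letters in 15.7% and CCAAT in 62.7%. These shares are descriptions of letters and were not tested.

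CDKN1A, on chromosome 6 at 36676460 to 36687339 (GRCh38), had 871, 891 and 903 CPM in p21 cells, against 715, 724 and 698 CPM in mVenus cells. All 3 p21 libraries lay above all 3 mVenus libraries, and the log2 fold change was 0.32 ± 0.04 (adjusted p = 2.08e-06), which is 1.25-fold. Whether reads of the transgene are counted for CDKN1A is not stated in the sources used here, so the difference may hold all, some or none of them. CDKN2A, the gene of p16, had 0 counts in all 6 libraries and in the 3 p16 libraries, and CDKN2B likewise, so the counts give no check of the p16 libraries by their own transgene. Over the 3 p21 libraries, 0 counts allow up to 0.0655 CPM, counting error only. Of the 6 tested cyclin-dependent kinase inhibitor genes among 8 listed, CDKN1A rose and 4 fell, where 28.2% and 28.3% of all genes did. CDKN2C, which encodes the inhibitor p18 and is itself an E2F target, had 5.65, 5.51 and 4.71 CPM in p21 cells, against 22.3, 19.8 and 21.1 CPM in mVenus cells (log2 fold change -2.00 ± 0.10, adjusted p = 9.12e-13). CDKN1B, the gene of p27, fell by 1.25-fold, and CDKN1C, the gene of p57, stood at 1.61, 0.805 and 0.446 CPM in p21 cells and 0.472, 0.292 and 0.654 CPM in mVenus cells, which overlap (adjusted p = 0.112). Without p21 replicate 3 CDKN1C passed as well, which makes 2 members that rose.

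Of the tested transcriptome, 56.4% moved. At an adjusted p under 0.05, 4085 genes were higher in p21 cells (28.2% of 14504) and 4102 were lower (28.3%), and changes of at least 2-fold were seen in 826 and 941 of these (5.69% and 6.49% of genes tested). The median log2 fold change over all genes was -0.0037, with a 5th percentile of -1.25 and a 95th percentile of 1.11. The replicates of both groups did not overlap for 9337 genes (64.4%). In the authors' deposited table of p21 over mVenus, 7355 of the same genes had an adjusted p under 0.05, and 7312 were called in both with the same sign, which is 99.4% of the calls in that table and 89.3% of those here.

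**Figure D1:**
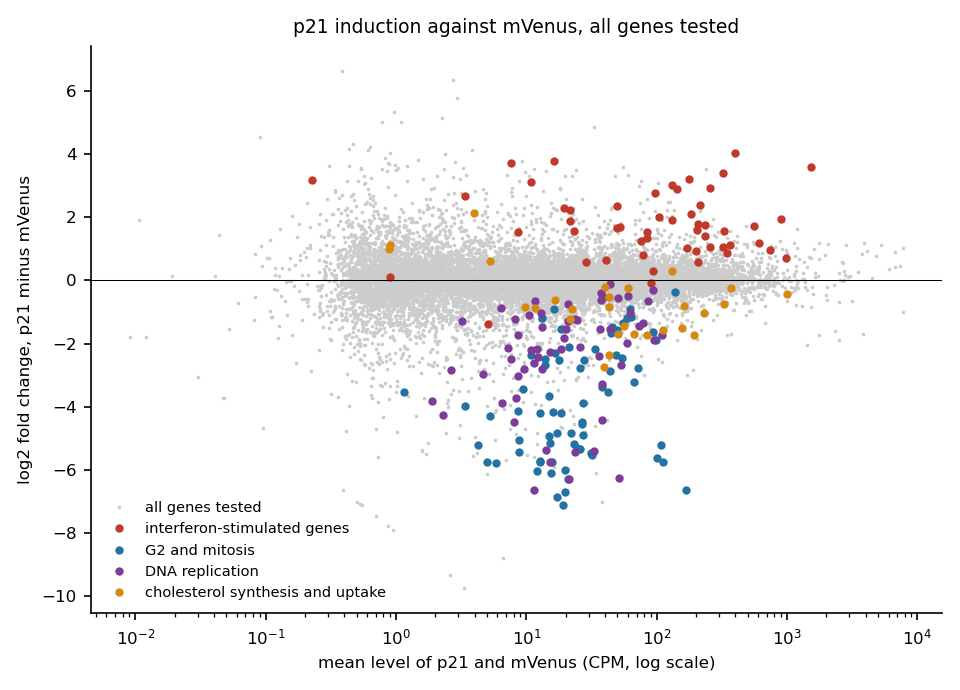
Log2 fold change of p21 over mVenus (vertical axis) against the mean level of both groups in CPM (horizontal axis, log scale) for the 14504 genes tested, with 4 gene lists in colour. Genes of mitosis and DNA replication lie below 0, with medians of -4.15 and -2.11, and most interferon-stimulated genes lie above 0, with a median of 1.67.

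The 10 largest rises with at least 5 CPM in p21 cells and no overlap of replicates included 4 interferon-stimulated genes, IFIT1, IFITM1, DHX58 and IFI6, which are described with their group. The largest was MYBPC1, which encodes slow myosin-binding protein C of muscle, with 5.28, 5.57 and 5.35 CPM in p21 cells, against 0.0524, 0.0730 and 0.0545 CPM in mVenus cells. It had 246 counts over the p21 libraries and 3 over the mVenus libraries, a ratio of 87.8 with an exact 95% interval of 29.7 to 429. ABCA8, a lipid transporter of the ATP-binding cassette family, had 63.7, 64.9 and 63.0 CPM in p21 cells, against 2.57, 2.56 and 1.58 CPM in mVenus cells (log2 fold change 4.85 ± 0.11, adjusted p = 1.8e-18). RAB25, a small GTPase of epithelial recycling, stood at 6.90, 7.30 and 7.45 CPM in p21 cells, against 0.524, 0.219 and 0.436 CPM in mVenus cells. The small heat shock gene HSPB7 reached 6.09, 4.83 and 5.03 CPM in p21 cells, against 0.419, 0.438 and 0.327 CPM in mVenus cells. In each of these 4 genes every p21 library was above every mVenus library. The zinc finger gene ZNF813 rose with a log2 fold change of 5.75 ± 0.35 and the long noncoding RNA AL023754.1 with 3.77 ± 0.15; for ZNF813, with 5 counts over the mVenus libraries, the value was 7.37 without mVenus replicate 2 and 5.15 without mVenus replicate 3.

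The 10 largest falls by fitted value included MYH14 and TLR2, which had no counts at all in p21 cells and for which only a lower bound of the fall can be given. MYH14, a non-muscle myosin heavy chain gene, had 0, 0 and 0 counts in p21 cells, against 136, 91 and 116 counts in mVenus cells, at least 107-fold lower when the p21 group is set to 3 counts in all. TLR2, a receptor for bacterial lipoproteins, had 0, 0 and 0 counts in p21 cells, against 90, 79 and 91 counts in mVenus cells, at least 81.0-fold lower. Both genes also had 0 counts in all 3 p16 libraries. The other 8 were genes of the dividing cell: TROAP, DLGAP5, MYBL2, UBE2C, KIF2C, MCM10, MKI67 and TK1. TROAP, a spindle pole protein, had 1 count over the p21 libraries and 677 over the mVenus libraries, a ratio of mVenus to p21 of 632 (exact 95% interval 113 to 25018); its fitted log2 fold change was -8.79 ± 0.42, and -10.70 without p21 replicate 3.

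Most genes of the cell cycle fell, from the entry to S phase to mitosis, with D-type cyclins among the exceptions. MKI67, the marker of cycling cells on chromosome 10 at 128096659 to 128126385, had 3.16, 3.84 and 3.06 CPM in p21 cells, against 335, 314 and 345 CPM in mVenus cells. The level was lower by 98.3-fold, with an adjusted p of 2.62e-23 at a log2 fold change of -6.62 ± 0.07, and the groups were far apart. In bulk RNA fewer dividing cells and less transcript per cell cannot be told apart. Of 16 tested cyclin and cyclin-dependent kinase genes (17 listed), 11 fell and 4 rose, with a median of -1.29, against 28.3% and 28.2% of all genes.

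**Figure D2:**
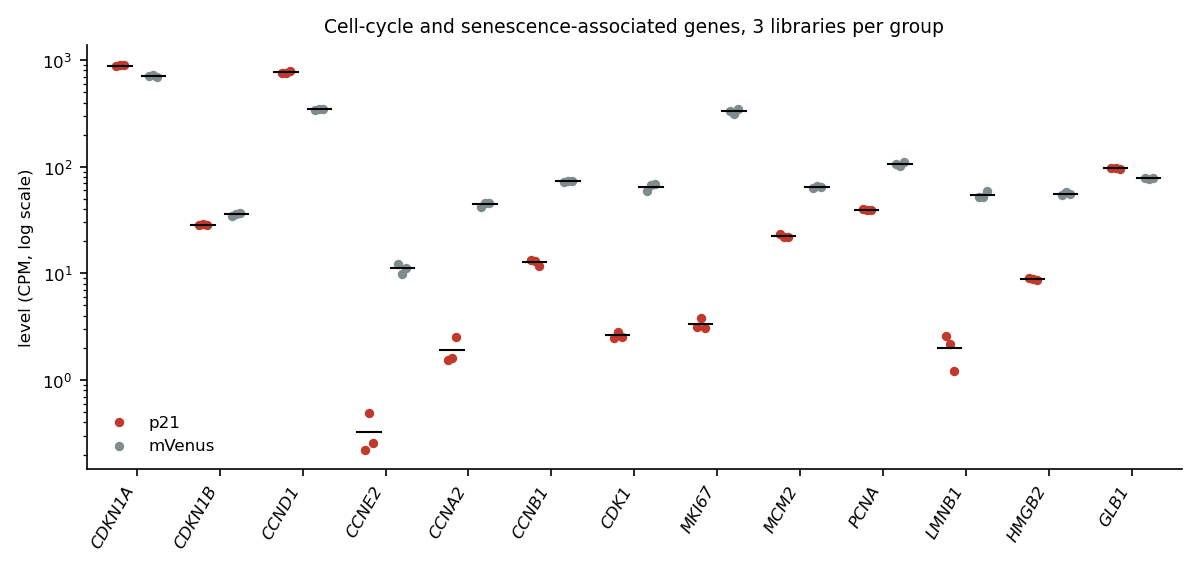
Levels in CPM (log scale) of 13 cell-cycle and senescence-associated genes in the 3 p21 and the 3 mVenus libraries, with points for libraries and bars for group means. CDKN1A, CCND1 and GLB1 are higher in p21 cells, and the other 10 genes are lower, MKI67 by 98.3-fold.

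The cyclins that act first in the cycle rose. CCND1, the gene of cyclin D1, had 755, 762 and 787 CPM in p21 cells, against 344, 348 and 348 CPM in mVenus cells (log2 fold change 1.15 ± 0.03, adjusted p = 2.96e-17). CCND2, of cyclin D2, had 154, 154 and 162 CPM in p21 cells, against 61.1, 70.5 and 74.1 CPM in mVenus cells and rose by 2.29-fold. Each of these cyclins had all p21 libraries above all mVenus libraries. CCNE2, of cyclin E2 at the entry to S phase, fell to 0.220, 0.495 and 0.255 CPM in p21 cells, against 12.4, 9.93 and 11.2 CPM in mVenus cells; 37.1% of its exonic bases are shared with another gene, so some of its reads may be left out. CCNA2, of cyclin A2, had 1.54, 1.61 and 2.55 CPM in p21 cells, against 42.2, 45.5 and 45.5 CPM in mVenus cells. CDK1, the kinase that drives mitosis, had 2.49, 2.85 and 2.55 CPM in p21 cells, against 58.8, 67.2 and 68.7 CPM in mVenus cells. For these and for CCNB1 (5.76-fold lower) the groups did not overlap, and CDK2, the kinase partner of cyclins E and A, fell less, by 3.51-fold.

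Among 21 tested genes of the retinoblastoma family, E2F and DREAM (22 listed), 14 fell and 2 rose, against 28.3% and 28.2% over all genes. MYBL2, whose product B-MYB switches MuvB to an activator of mitotic genes, had 0.954, 0.619 and 0.191 CPM in p21 cells, against 73.9, 75.4 and 75.8 CPM in mVenus cells (log2 fold change -7.02 ± 0.13). E2F1, the activator E2F, had 0.954, 0.867 and 0.637 CPM in p21 cells, against 23.9, 21.9 and 24.0 CPM in mVenus cells. FOXM1, which acts with B-MYB on G2 genes, had 3.45, 3.96 and 3.70 CPM in p21 cells, against 52.8, 52.4 and 55.3 CPM in mVenus cells. The p21 values of all 3 factors lay under those of every mVenus library. The pocket protein genes moved unequally: RBL1, of p107, fell with a log2 fold change of -2.16 ± 0.08, RB1 fell with -0.35 ± 0.06, and RBL2 rose with 0.51 ± 0.05. RBL2, of p130, the pocket protein of DREAM in resting cells, had 80.2, 71.2 and 72.1 CPM in p21 cells, against 51.8, 53.5 and 51.5 CPM in mVenus cells. The other gene that rose was TFDP2, a dimer partner of E2F factors (log2 fold change 0.48 ± 0.05).

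Of 59 tested DNA replication genes (60 listed), 58 fell and none rose, against 28.3% and 28.2% over all genes. The median log2 fold change was -2.11 against -0.0037 over all genes. RRM2, the regulated subunit of ribonucleotide reductase, had 1.54, 1.30 and 1.15 CPM in p21 cells, against 104, 96.8 and 106 CPM in mVenus cells. TK1, whose promoter is shown above, had 0.587, 0.619 and 0.382 CPM in p21 cells, against 39.4, 44.3 and 41.1 CPM in mVenus cells, and MCM10 had 0.220, 0.248 and 0.191 CPM in p21 cells, against 21.5, 22.3 and 24.2 CPM in mVenus cells. These 3 genes were each over 70-fold lower, with no overlap. The licensing helicase gene MCM2 fell by 2.91-fold and the sliding clamp gene PCNA by 2.70-fold, so the falls within replication spanned a wide range. PCNA had 39.8, 39.6 and 39.1 CPM in p21 cells, against 107, 102 and 111 CPM in mVenus cells.

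All 70 tested genes of G2 and mitosis (73 listed) fell, against 28.3% over all genes. Their log2 fold changes were -7.12 to -0.38, with a median of -4.15. The 3 untested members, SPC25, KIF15 and KIFC1, had 0 counts in every p21 library and 0 to 8 counts in each mVenus library. DLGAP5 had 0.00, 0.186 and 0.573 CPM in p21 cells, against 36.9, 38.1 and 38.4 CPM in mVenus cells (log2 fold change -7.12 ± 0.20, and -8.44 without p21 replicate 3). UBE2C, the ubiquitin-conjugating enzyme of the anaphase-promoting complex, had 0.367, 0.309 and 0.191 CPM in p21 cells, against 34.0, 33.2 and 35.8 CPM in mVenus cells. TOP2A, topoisomerase II alpha, had 4.33, 4.77 and 3.31 CPM in p21 cells, against 225, 208 and 230.5 CPM in mVenus cells, with its p21 values far under those of mVenus cells. The mitotic kinase genes PLK1 and BUB1 fell by 14.9-fold and 22.5-fold, and CDC20, an activator of the anaphase-promoting complex, by 40.3-fold. The smallest falls named were STMN1, a microtubule destabiliser (log2 fold change -2.37 ± 0.06), and BUB3, a checkpoint protein with 120.0, 119 and 120.0 CPM in p21 cells, against 157, 153 and 157 CPM in mVenus cells.

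Against p16 cells the falls of mitotic genes were larger in p21 cells. In that direct test 54.3% of all genes passed, 27.2% higher and 27.2% lower in p21 cells, and 6.12% and 5.12% by at least 2-fold. In the G2 and mitosis list 2 were higher and 55 lower, with a median of -1.08. MKI67 stood at 3.16, 3.84 and 3.06 CPM in p21 cells and 10.1, 10.5 and 9.69 CPM in p16 cells (log2 fold change -1.59 ± 0.11, adjusted p = 2.51e-10), and PLK1 at 3.82, 3.47 and 3.06 CPM in p21 cells and 18.6, 21.5 and 19.2 CPM in p16 cells (log2 fold change -2.52 ± 0.11). DNA replication was more mixed, with 6 members higher and 36 lower in p21 cells: ORC6, of the origin recognition complex, was lower with a log2 fold change of -1.18 ± 0.13, whereas PCNA was higher with 0.42 ± 0.07. STMN1 was one of the 2 mitotic members that were higher in p21 cells, at 15.8, 15.5 and 16.1 CPM against 9.73, 8.96 and 9.08 CPM in p16 cells.

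Genes of homologous recombination and the Fanconi anaemia pathway, which repair breaks and crosslinks in S and G2 phase, fell with the cell cycle genes: 30 of 37 tested members (38 listed) were lower and none was higher, with a median of -1.24. Among all genes tested, 28.3% were lower and 28.2% higher. Without p21 replicate 3, 1 member of the list was higher. BRCA1 had 7.48, 7.06 and 7.20 CPM in p21 cells, against 47.7, 46.5 and 48.6 CPM in mVenus cells (log2 fold change -2.72 ± 0.07, adjusted p = 1.41e-17). BRCA2, of a mediator of strand exchange, had 3.38, 1.92 and 3.19 CPM in p21 cells, against 27.2, 25.3 and 25.9 CPM in mVenus cells. The helicase gene BLM had 0.514, 0.805 and 0.319 CPM in p21 cells, against 16.6, 13.9 and 18.1 CPM in mVenus cells. All 3 had every p21 library under every mVenus library. EXO1, a nuclease of break ends, fell by 19.6-fold, and the nuclease gene MUS81 by 1.46-fold.

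End joining repairs breaks throughout the cycle. Of 22 tested members (23 listed) 12 fell, none rose and 10 did not pass, with a median of -0.31. Over all genes 28.3% fell and 28.2% rose. POLQ, of the polymerase of microhomology-mediated joining, had 0.807, 1.61 and 0.956 CPM in p21 cells, against 16.1, 15.1 and 15.4 CPM in mVenus cells (log2 fold change -3.76 ± 0.16). The Ku70 gene XRCC6 had 279, 286 and 283 CPM in p21 cells, against 353, 335 and 349.6 CPM in mVenus cells, and PRKDC, of the DNA-dependent protein kinase, had 405, 408 and 417 CPM in p21 cells, against 560.2, 529 and 545 CPM in mVenus cells. Both fell by less than 1.5-fold with groups that did not overlap (log2 fold change -0.29 ± 0.03 and -0.41 ± 0.04). TP53BP1, of the break factor 53BP1, had 83.6, 82.9 and 78.0 CPM in p21 cells, against 78.6, 72.5 and 78.6 CPM in mVenus cells, which overlap (adjusted p = 0.124). PARP1, a sensor of strand breaks, fell by 1.53-fold.

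In mismatch and excision repair 13 members rose, 13 fell and 13 did not pass of 39 tested (42 listed; median -0.03), against 28.2% higher and 28.3% lower over all genes. NEIL3, a glycosylase of dividing cells, had 0.147, 0.186 and 0.127 CPM in p21 cells, against 7.55, 8.47 and 6.75 CPM in mVenus cells. The mismatch gene MSH6 fell with a log2 fold change of -0.84 ± 0.04. Among those that rose were 2 genes of nucleotide excision repair: DDB1, of a damage recognition subunit, had 584, 586 and 578 CPM in p21 cells, against 341, 341 and 339.7 CPM in mVenus cells (log2 fold change 0.77 ± 0.04), and XPC rose with 0.67 ± 0.06, with 30.4% of its exonic bases shared. Every p21 library was above every mVenus library for DDB1.

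Of 24 tested genes of DNA damage signalling (25 listed), 14 fell and 4 rose, against 28.3% and 28.2% over all genes. The median was -0.24, and without mVenus replicate 2, 2 rose. CHEK1, the checkpoint kinase of S phase, had 17.4, 17.6 and 18.1 CPM in p21 cells, against 35.4, 37.3 and 39.7 CPM in mVenus cells. H2AFX, of the histone variant H2AX, had 45.4, 47.8 and 43.7 CPM in p21 cells, against 127, 138 and 127 CPM in mVenus cells. Each fell with groups apart, with log2 fold changes of -1.08 ± 0.06 and -1.51 ± 0.05. The apical kinase genes ATM and ATR had log2 fold changes of 0.13 ± 0.04 and 0.13 ± 0.05; ATM no longer passed without mVenus replicate 2, and ATR did not pass without mVenus replicate 2 or 3 or without any of the 3 p21 replicates in turn.

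Genes that p53 activates rose more often than not: 25 of 34 tested (35 listed) were higher and 4 lower, with a median of 0.35. Among all genes 28.2% were higher and 28.3% lower. GDF15, a stress hormone of the TGF-beta family, had 35.9, 29.9 and 35.5 CPM in p21 cells, against 9.70, 10.7 and 7.95 CPM in mVenus cells (log2 fold change 1.85 ± 0.10, adjusted p = 3.07e-12). GADD45A, a damage-inducible regulator of the cell cycle, had 73.3, 77.2 and 72.1 CPM in p21 cells, against 37.6, 41.0 and 37.3 CPM in mVenus cells. TRIM22, which interferon also induces, had 162, 165 and 179 CPM in p21 cells, against 44.8, 43.7 and 41.0 CPM in mVenus cells. The groups of all 3 genes were apart. MDM2, whose product degrades p53, rose with a log2 fold change of 0.40 ± 0.06, BTG2, an antiproliferative factor, with 0.65 ± 0.06 and SESN1, a sestrin, with 0.28 ± 0.07. PLK3, SFN and PPM1D were among the 4 that fell, with log2 fold changes of -0.46 ± 0.06, -0.26 ± 0.03 and -0.24 ± 0.08. PPM1D did not pass without p21 replicate 1, without the filter on low counts or under the DESeq2 test. Against p16 cells 23 members were higher and 4 lower, where 27.2% of all genes were called in each direction. GDF15 was higher with a log2 fold change of 1.39 ± 0.10 and the TNF receptor family gene EDA2R with 1.43 ± 0.09. PERP, a desmosome-associated p53 target, was lower with -1.50 ± 0.04.

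In the BCL2 family, which sets the threshold for apoptosis, 6 of 18 tested members (20 listed) rose and 9 fell. The shares over all genes were 28.2% and 28.3%. Among those that rose, HRK, a BH3-only activator of apoptosis, had 28.5, 24.9 and 24.1 CPM in p21 cells, against 11.3, 11.7 and 11.4 CPM in mVenus cells. BCL2L1, of the survival protein BCL-xL, had 229, 238 and 232 CPM in p21 cells, against 160.3, 162 and 156 CPM in mVenus cells, with 43.0% of its exonic bases shared. Both had all p21 libraries above all mVenus libraries. BBC3, of PUMA, rose with a log2 fold change of 0.55 ± 0.13 and BCL2 itself fell with -0.96 ± 0.25. MCL1 had 639, 643 and 666 CPM in p21 cells, against 676, 662 and 695 CPM in mVenus cells (adjusted p = 0.125).

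Lamina and chromatin genes that change in senescence fell in 30 of 35 tested cases, and 1 rose (median -0.76). By comparison, 28.3% of all genes fell and 28.2% rose. LMNB1, which encodes lamin B1 on chromosome 5 at 126776623 to 126837020, had 2.57, 2.17 and 1.21 CPM in p21 cells, against 52.0, 51.5 and 59.0 CPM in mVenus cells. This was a fall of 27.6-fold with no overlap (adjusted p = 1.89e-17, log2 fold change -4.79 ± 0.13). HMGB2, a chromatin protein lost on arrest, had 8.95, 8.79 and 8.66 CPM in p21 cells, against 54.2, 58.1 and 55.7 CPM in mVenus cells. EZH2, the Polycomb methyltransferase, had 10.8, 9.28 and 10.0 CPM in p21 cells, against 29.2, 24.97 and 27.8 CPM in mVenus cells. The maintenance methylation factor UHRF1 and the remodeller HELLS fell by 8.37-fold and 9.12-fold. HIRA, a histone chaperone, was the member that rose (log2 fold change 0.52 ± 0.10), and 66.5% of its exonic bases are shared with another gene.

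The secreted factors of senescence did not move as one. Of 41 tested members (57 listed) 18 rose, 15 fell and 8 did not pass, with a median of 0.06, against 28.2% and 28.3% over all genes. TGFB2, of transforming growth factor beta 2, had 26.3, 27.2 and 26.9 CPM in p21 cells, against 5.82, 4.16 and 6.32 CPM in mVenus cells. IGFBP4, an insulin-like growth factor binding protein, had 6.97, 6.07 and 8.41 CPM in p21 cells, against 1.21, 0.876 and 0.871 CPM in mVenus cells. SERPINB2, of plasminogen activator inhibitor 2, had 32.4, 37.3 and 34.98 CPM in p21 cells, against 7.91, 8.47 and 9.75 CPM in mVenus cells. These were the 3 largest rises of the list at 5 CPM or more, each with p21 libraries above mVenus libraries. CXCL8, of interleukin 8, had 11.01, 15.1 and 14.1 CPM in p21 cells, against 8.70, 6.65 and 8.39 CPM in mVenus cells (log2 fold change 0.75 ± 0.13, adjusted p = 3.53e-05). IL1A, of interleukin 1 alpha, had 22.2, 24.3 and 27.4 CPM in p21 cells, against 26.7, 21.5 and 22.3 CPM in mVenus cells, which overlap (adjusted p = 0.625). IL1B, of interleukin 1 beta, had 4.55, 3.96 and 5.35 CPM in p21 cells, against 5.97, 5.62 and 4.90 CPM in mVenus cells, which overlap as well (adjusted p = 0.197). PLAU, of urokinase, fell by 3.77-fold (31.1% of exonic bases shared) and STC1, of stanniocalcin 1, by 4.25-fold. IL6 and MMP1, known for this programme in fibroblasts, were at 0 to 2 counts in every library of both groups and were not tested.

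Set against p16 cells, 17 of the 41 tested secreted factors were higher in p21 cells and 20 lower. In that test 27.2% of all genes were called in each direction. TGFB2 stood at 26.3, 27.2 and 26.9 CPM in p21 cells and 0.935, 0.790 and 1.29 CPM in p16 cells (log2 fold change 4.73 ± 0.17, adjusted p = 3.82e-15). CXCL8 was lower than in p16 cells, which had 64.9, 65.4 and 71.7 CPM (log2 fold change -2.32 ± 0.09), and the chemokine gene CCL28 as well, at 12.3, 12.2 and 11.8 CPM in p21 cells and 141, 147 and 139 CPM in p16 cells. For these 3 genes the replicates of the 2 groups did not overlap.

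Of NF-kappaB subunits, inhibitors and targets, 10 of 22 tested members (26 listed) were higher and 5 lower, against 28.2% and 28.3% over all genes. CXCL1, a neutrophil chemokine gene, had 31.2, 39.8 and 46.8 CPM in p21 cells, against 10.7, 11.4 and 11.7 CPM in mVenus cells, and SOD2, of the mitochondrial superoxide dismutase, had 782, 886 and 883 CPM in p21 cells, against 254, 244 and 268 CPM in mVenus cells. The groups of both were apart, with log2 fold changes of 1.81 ± 0.12 and 1.74 ± 0.06. The inhibitor genes NFKBIA and TNFAIP3 rose with log2 fold changes of 0.26 ± 0.04 and 0.52 ± 0.08, while the inhibitor gene NFKBIE fell, with a log2 fold change of -0.76 ± 0.12, the subunit gene NFKB1 fell with -0.33 ± 0.05 and TNFAIP2 with -1.36 ± 0.07.

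**Figure D3:**
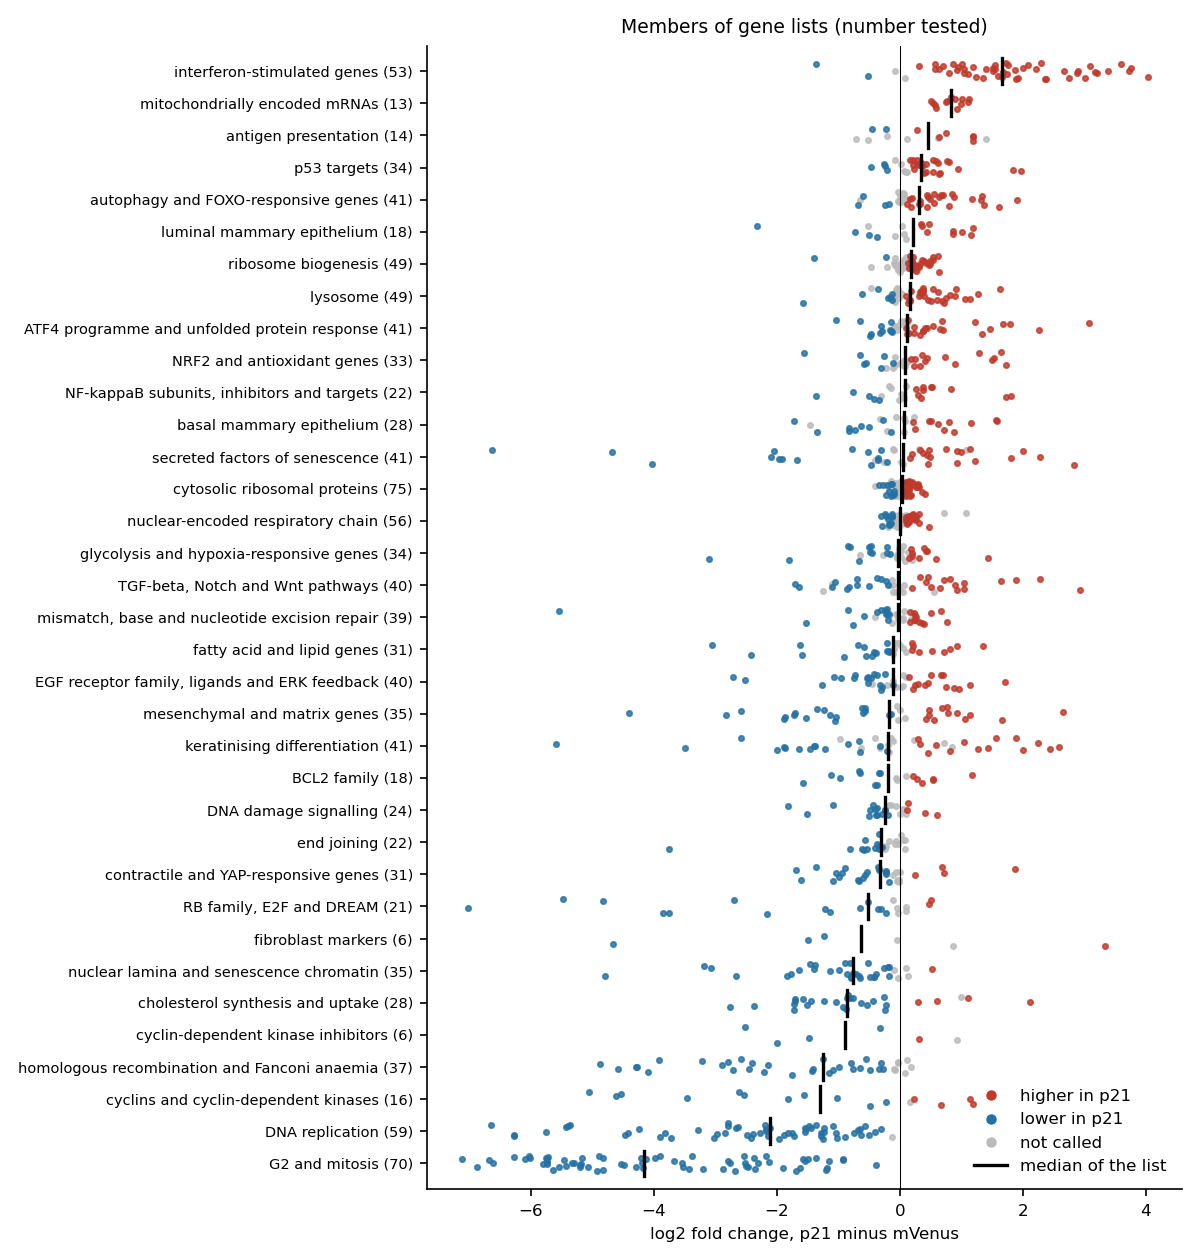
Log2 fold changes of p21 over mVenus (horizontal axis) for the tested members of each gene list with at least 5 tested members, one point per gene, coloured by the edgeR call, with a bar at the median of the list. Lists run from interferon-stimulated genes at the top, with a median of 1.67, to G2 and mitosis at the bottom, with a median of -4.15.

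Interferon-stimulated genes, the antiviral programme of the cell, were the list with the highest median, at 1.67. Of 53 tested members (55 listed) 49 rose, 2 fell and 2 did not pass, against 28.2% higher and 28.3% lower over all genes. IFIT1, which binds viral RNA, had 690.3, 748 and 822 CPM in p21 cells, against 57.3, 49.2 and 31.8 CPM in mVenus cells (log2 fold change 4.03 ± 0.14, adjusted p = 8.21e-16). IFI6, a mitochondrial interferon-induced protein gene, had 2788, 2873 and 2749.8 CPM in p21 cells, against 235, 257 and 203 CPM in mVenus cells. DHX58, of the RNA sensor LGP2, had 15.6, 13.2 and 13.4 CPM in p21 cells, against 0.943, 1.24 and 1.03 CPM in mVenus cells. Every p21 library lay above every mVenus library in each, and mVenus replicate 3 was the lowest of its group for IFIT1 and IFI6. ISG15, a ubiquitin-like modifier, had 442, 435 and 486 CPM in p21 cells, against 61.0, 74.6 and 47.9 CPM in mVenus cells, and OAS1, of an oligoadenylate synthetase, had 156, 172 and 179 CPM in p21 cells, against 26.6, 28.99 and 20.3 CPM in mVenus cells. IFITM1, a membrane restriction factor, rose with a log2 fold change of 3.76 ± 0.19, with 32.5% of its exonic bases shared, and MX2 with 3.10 ± 0.18.

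The 2 members that fell were MX1 and GBP2. MX1, an antiviral dynamin-like GTPase gene, had 2.94, 3.03 and 2.55 CPM in p21 cells, against 9.22, 7.59 and 5.17 CPM in mVenus cells (log2 fold change -1.37 ± 0.20). GBP2, of a guanylate-binding protein, had 35, 29.2 and 32.1 CPM in p21 cells, against 44.4, 44.8 and 47.7 CPM in mVenus cells (log2 fold change -0.51 ± 0.06). In both, each p21 library was under each mVenus library. Against p16 cells 18 members were higher in p21 cells and 13 lower, with a median of 0.02, against 27.2% of all genes called in each direction. IFIT1 stood at 690.3, 748 and 822 CPM in p21 cells and 838, 788 and 1046 CPM in p16 cells (adjusted p = 0.0720). IFI6 and MX2 were higher in p21 cells than in p16 cells, with log2 fold changes of 0.90 ± 0.06 and 1.61 ± 0.16, and RSAD2, of the antiviral enzyme viperin, was lower with -0.93 ± 0.10.

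**Figure D4:**
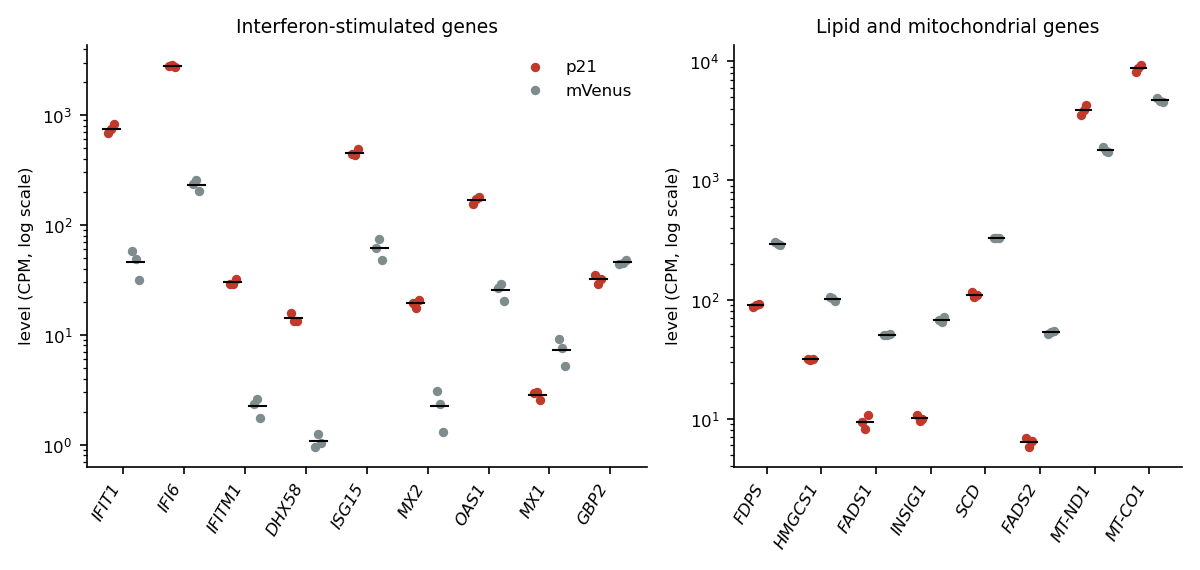
Levels in CPM (log scale) in the 3 p21 and the 3 mVenus libraries, with bars at group means, for 9 interferon-stimulated genes (left) and 8 lipid and mitochondrial genes (right). The first 7 interferon-stimulated genes are higher in p21 cells while MX1 and GBP2 are lower, and the 6 lipid genes are lower in p21 cells while MT-ND1 and MT-CO1 are higher.

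Of antigen presentation genes, 14 of 25 could be tested, and 6 rose and 2 fell, against 28.2% and 28.3% over all genes. B2M, the light chain of class I molecules, had 245, 258 and 255 CPM in p21 cells, against 115, 110.5 and 108 CPM in mVenus cells. HLA-B and HLA-C, 2 of the class I heavy chains, rose with log2 fold changes of 1.20 ± 0.06 and 1.20 ± 0.06; class I genes resemble each other, so reads may be split or lost among them. HLA-B had 151, 166 and 159 CPM in p21 cells, against 67.5, 67.0 and 72.4 CPM in mVenus cells, with the groups apart. The chaperone genes CALR and PDIA3 fell, with log2 fold changes of -0.46 ± 0.03 and -0.23 ± 0.03. TAP1 had 0 counts in all 6 libraries and PSMB9 had 0 or 1, and neither was tested.

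Defining keratins of mammary epithelium were present in all 6 libraries. KRT5, a basal keratin, had 2747, 2877 and 2836 CPM in p21 cells, against 1246, 1269 and 1285 CPM in mVenus cells (log2 fold change 1.15 ± 0.03). KRT15, another basal keratin, had 159, 151 and 143 CPM in p21 cells, against 47.8, 48.9 and 54.2 CPM in mVenus cells, and MUC1, a luminal mucin, had 1632, 1655 and 1459.5 CPM in p21 cells, against 692, 685 and 697 CPM in mVenus cells. All 3 were higher in every p21 library. Of 28 tested basal mammary genes (29 listed) 11 rose and 9 fell, and of 18 luminal genes (27 listed) 9 rose and 4 fell. Over all genes 28.2% rose and 28.3% fell. KRT8 and KRT18, which pair in simple epithelia, rose with log2 fold changes of 0.45 ± 0.05 and 0.48 ± 0.04. Of the 4 luminal genes that fell, ERBB3, chosen after its values were seen, had a log2 fold change of -0.73 ± 0.06. The lowest log2 fold change in the luminal list was -2.32. KRT14 had 32.0, 32.1 and 27.2 CPM in p21 cells, against 22.8, 26.8 and 27.2 CPM in mVenus cells, where replicates of the 2 groups touch, and its log2 fold change of 0.25 ± 0.09 did not pass without p21 replicate 1 or 2 or without mVenus replicate 1. LAMB3, of a laminin chain of the basement membrane, fell with a log2 fold change of -0.83 ± 0.04.

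Of keratinising differentiation, the programme of stratified epithelium, 14 of 41 tested members (55 listed) were higher and 16 lower, against 28.2% and 28.3% over all genes. IVL, of the envelope protein involucrin, had 26.6, 30.1 and 26.0 CPM in p21 cells, against 5.92, 5.48 and 5.88 CPM in mVenus cells (log2 fold change 2.25 ± 0.09), and KLK5, of an epidermal protease, had 153, 147 and 130.2 CPM in p21 cells, against 24.8, 22.5 and 24.2 CPM in mVenus cells (log2 fold change 2.58 ± 0.08). KRT16, a stress keratin, had 166, 173 and 176 CPM in p21 cells, against 41.1, 44.0 and 53.1 CPM in mVenus cells. These 3 rose with no overlap. The calprotectin genes S100A8 and S100A9 fell, with 5.65, 7.49 and 5.80 CPM in p21 cells, against 34.1, 38.0 and 41.9 CPM in mVenus cells for S100A9 and a log2 fold change of -3.49 ± 0.20 for S100A8. S100A7, of psoriasin, had 1 count over the p21 libraries and 74 over the mVenus libraries, a ratio of mVenus to p21 of 69.1 (exact 95% interval 12.0 to 2767). Its fitted log2 fold change was -5.60 ± 0.58, and -7.51 without p21 replicate 3.

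In the direct test against p16 cells, 3 of the 41 keratinising genes were higher in p21 cells and 35 lower, with a median of -1.23. The share of all genes called was 27.2% in each direction. S100A8 stood at 0.587, 0.557 and 0.573 CPM in p21 cells and 72.9, 71.5 and 65.9 CPM in p16 cells (log2 fold change -6.92 ± 0.13, adjusted p = 1.07e-19). KRT14 stood at 32.0, 32.1 and 27.2 CPM in p21 cells and 483, 450.0 and 467 CPM in p16 cells (log2 fold change -3.94 ± 0.07), and the basal factor gene TP63 at 4.40, 5.08 and 3.89 CPM in p21 cells and 34.99, 37.5 and 39.3 CPM in p16 cells (log2 fold change -3.06 ± 0.10). SERPINB13, a protease inhibitor gene of squamous cells, had 3 counts over the p21 libraries and 492 over the p16 libraries. These levels were far apart between p21 and p16 cells. KLK7, a partner protease of KLK5, was one of the members higher in p21 cells, at 589, 550.5 and 495 CPM against 246, 230.5 and 216 CPM in p16 cells (log2 fold change 1.24 ± 0.07). Luminal genes followed the same direction, with 1 higher and 16 lower of 18. The basal mammary list, to which KRT14 and TP63 belong, was mixed: of 28 tested members 9 were higher and 13 lower (median -0.03).

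Mesenchymal and matrix genes were lower than in mVenus cells for 19 and higher for 12 of 35 tested members (38 listed, median -0.17). Over all genes the shares were 28.3% and 28.2%. FN1, of fibronectin, had 1411, 1567 and 1790.4 CPM in p21 cells, against 2584, 2280.3 and 2457 CPM in mVenus cells (log2 fold change -0.62 ± 0.08, adjusted p = 1.59e-06). TNC, of tenascin C, had 3.67, 3.65 and 3.89 CPM in p21 cells, against 71.5, 75.9 and 91.2 CPM in mVenus cells (log2 fold change -4.41 ± 0.11). TGFBI, a matrix protein induced by TGF-beta, had 1006, 1049.8 and 1155 CPM in p21 cells, against 4099, 3914 and 3813 CPM in mVenus cells (log2 fold change -1.88 ± 0.05). The 3 fell with groups apart, and vimentin (VIM) fell by 2.08-fold. Among those that rose were LOX, which crosslinks collagen, with 68.2, 65.8 and 72.1 CPM in p21 cells, against 32.0, 31.3 and 29.9 CPM in mVenus cells, and the transcription factor genes ZEB1 and ZEB2, with log2 fold changes of 1.07 ± 0.10 and 1.66 ± 0.12. CDH1, of E-cadherin, had 684, 691 and 639 CPM in p21 cells, against 672, 669 and 719.5 CPM in mVenus cells, which overlap (adjusted p = 0.503).

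Against p16 cells the same list was higher in p21 cells for 26 members and lower for 6, with a median of 0.96. Of all genes, 27.2% were called in each direction. FN1 stood at 1411, 1567 and 1790.4 CPM in p21 cells and 63.7, 65.4 and 55.9 CPM in p16 cells (log2 fold change 4.69 ± 0.10, adjusted p = 1.4e-18). FBN1, of fibrillin 1, stood at 50.7, 55.2 and 59.2 CPM in p21 cells and 3.18, 2.44 and 3.12 CPM in p16 cells (log2 fold change 4.24 ± 0.11), and DCN, of decorin, at 109, 112 and 107 CPM in p21 cells and 2.81, 3.10 and 3.18 CPM in p16 cells (log2 fold change 5.17 ± 0.08). CDH1 was lower in p21 cells than in p16 cells, with a log2 fold change of -1.17 ± 0.04. The 5 largest rises over p16 cells in the whole transcriptome were HSPB7, ABCA8, AQP9 (an aquaglyceroporin), LCP1 (the actin bundler L-plastin) and DCN. HSPB7 had 240 counts over the p21 libraries and 2 over the p16 libraries, a ratio of 124 with an exact 95% interval of 34.1 to 1034. LCP1 stood at 134, 128 and 128 CPM in p21 cells, 2.99, 3.75 and 3.12 CPM in p16 cells and 17.2, 16.1 and 15.8 CPM in mVenus cells. The 5 largest falls were S100A7, SERPINB13, S100A8, SLC6A14 (an amino acid transporter) and FAT2 (a protocadherin of squamous epithelium). S100A7 had 1 count over the p21 libraries and 287 over the p16 libraries, a ratio of p16 to p21 of 277 (49.3 to 10968). For SERPINB13 that ratio was 158 (53.8 to 769).

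**Figure D5:**
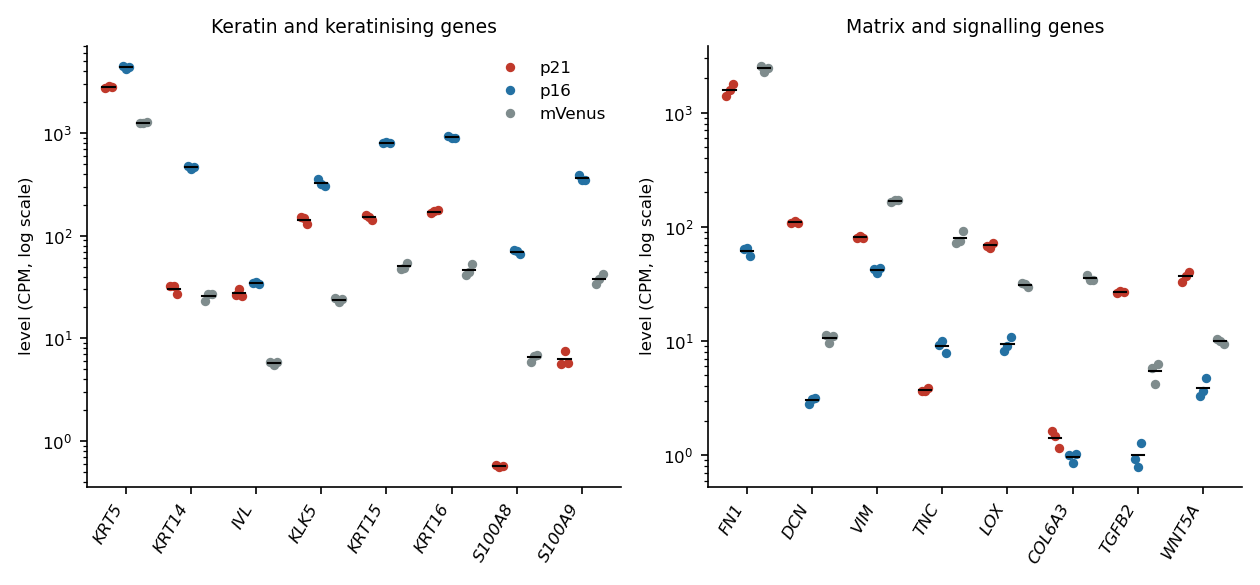
Levels in CPM (log scale) in p21, p16 and mVenus libraries, 3 each, with bars at group means, for keratin and keratinising genes (left) and matrix and signalling genes (right). S100A8 and S100A9 are lowest in p21 cells and highest in p16 cells, whereas FN1 and VIM in p21 cells lie between p16 and mVenus cells.

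Genes of the contractile cytoskeleton and of YAP, the effector of the Hippo pathway, fell in 19 and rose in 4 of 31 tested (32 listed). The median was -0.32, and of all genes 28.3% fell and 28.2% rose. ACTG1, of gamma actin, had 1805, 1833 and 1835 CPM in p21 cells, against 5961, 5953 and 5674 CPM in mVenus cells (log2 fold change -1.68 ± 0.04). FLNA, of the crosslinker filamin A, had 1140.5, 1162 and 1148 CPM in p21 cells, against 3436, 3563 and 3441 CPM in mVenus cells (log2 fold change -1.60 ± 0.04). CTGF, a YAP target that encodes a matricellular protein, had 58.4, 59.9 and 68.6 CPM in p21 cells, against 123, 117 and 108 CPM in mVenus cells. All p21 libraries were under all mVenus libraries in these. CYR61, another YAP target, fell with a log2 fold change of -0.34 ± 0.05, whereas the YAP targets ANKRD1 and AMOTL2 rose with 0.72 ± 0.14 and 0.69 ± 0.04. The largest rise was that of ZYX, with a log2 fold change of 1.88, which was -0.42 without p21 replicate 1. ZYX also did not pass without mVenus replicate 1, 2 or 3 in turn. Against p16 cells 21 members were higher in p21 cells and 7 lower, where 27.2% of all genes were called in each direction. CTGF was higher, with a log2 fold change of 2.86 ± 0.09.

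In the family of the epidermal growth factor receptor and its feedback genes, 14 of 40 members rose and 18 fell. Over all genes the shares were 28.2% and 28.3%. The receptor gene EGFR had 816, 846 and 861 CPM in p21 cells, against 599, 589 and 589 CPM in mVenus cells (log2 fold change 0.51 ± 0.03), and the ligand genes EPGN, AREG and EREG rose with 1.71 ± 0.04, 0.70 ± 0.05 and 0.88 ± 0.13. The ligand genes HBEGF and TGFA, chosen after their values were seen, fell with log2 fold changes of -0.30 ± 0.06 and -0.29 ± 0.04. EPGN, of epigen, had 389, 402 and 404 CPM in p21 cells, against 124, 125 and 117 CPM in mVenus cells. EGR1, an immediate early gene downstream of ERK, had 162, 159.7 and 159 CPM in p21 cells, against 404, 378 and 371 CPM in mVenus cells (log2 fold change -1.26 ± 0.04). The replicates of these genes were apart, while SPRY4, a feedback inhibitor of ERK signalling, had 80.8, 82.0 and 83.8 CPM in p21 cells, against 89.9, 83.2 and 84.6 CPM in mVenus cells (adjusted p = 0.247).

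The TGF-beta, Notch and Wnt pathway list had 16 members that rose and 13 that fell of 40 tested (50 listed). Over all genes 28.2% rose and 28.3% fell. DKK1, a secreted antagonist of Wnt signalling, had 237, 249 and 250.3 CPM in p21 cells, against 32.6, 30.2 and 33.2 CPM in mVenus cells (log2 fold change 2.93 ± 0.06, adjusted p = 2.97e-19), and WNT5A, a ligand of noncanonical Wnt signalling, had 32.8, 37.2 and 40.4 CPM in p21 cells, against 10.5, 10.1 and 9.37 CPM in mVenus cells (log2 fold change 1.89 ± 0.09). Both were far above mVenus cells. Among inhibitors of TGF-beta and BMP signalling SMAD7 and SKIL fell with log2 fold changes of -0.70 ± 0.09 and -1.10 ± 0.09, while SMAD6 and BAMBI rose, with log2 fold changes of 1.65 ± 0.12 and 0.34 ± 0.08. In the Notch pathway the ligand gene JAG1 fell with a log2 fold change of -1.05 ± 0.06, the receptor gene NOTCH3 with -0.86 ± 0.13 and the target HES1 with -0.70 ± 0.09, while the ligand gene JAG2 and HES2 rose, with log2 fold changes of 0.51 ± 0.05 and 0.90 ± 0.05; SMAD6, BAMBI, JAG2 and HES2 were chosen after their values were seen. HES1 had 7.12, 7.86 and 8.22 CPM in p21 cells, against 12.3, 12.0 and 13.4 CPM in mVenus cells. NOTCH3 was also lower than in p16 cells, at 4.62, 4.39 and 4.59 CPM in p21 cells against 45.0, 44.3 and 37.5 CPM in p16 cells (log2 fold change -3.22 ± 0.10), and DKK1 was higher, with 34.7, 38.0 and 43.1 CPM in p16 cells (log2 fold change 2.67 ± 0.06).

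Lysosomal genes rose in 29 and fell in 7 of 49 tested cases (52 listed, median 0.17), against 28.2% and 28.3% over all genes. GLB1, of the beta-galactosidase whose activity marks senescent cells (chromosome 3, 32996608 to 33097230), had 97.3, 97.2 and 94.4 CPM in p21 cells, against 77.8, 77.0 and 78.3 CPM in mVenus cells (log2 fold change 0.31 ± 0.05, adjusted p = 9.13e-06). FUCA1, of a lysosomal fucosidase and a p53 target, had 121, 111 and 114 CPM in p21 cells, against 36.1, 38.4 and 37.4 CPM in mVenus cells (log2 fold change 1.63 ± 0.05). GAA, of acid alpha-glucosidase, had 80.6, 73.7 and 74.7 CPM in p21 cells, against 31.4, 31.8 and 31.0 CPM in mVenus cells. The p21 libraries were above the mVenus libraries in all 3. LAMP1, a membrane protein gene, rose with a log2 fold change of 0.38 ± 0.03, and CTSD, of cathepsin D, with 1.06 ± 0.04, with 52.7% of its exonic bases shared. TFEB, the regulator of lysosomal genes, had 12.0, 11.6 and 13.7 CPM in p21 cells, against 12.3, 15.1 and 12.8 CPM in mVenus cells, which overlap (adjusted p = 0.466), and CTSV, of cathepsin V, fell with a log2 fold change of -1.57 ± 0.14.

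Autophagy and FOXO-responsive genes rose in 25 and fell in 4 of 41 tested (42 listed, median 0.32), against 28.2% and 28.3% over all genes. The number that fell was 2 without p21 replicate 1 or 2 or without mVenus replicate 1. TXNIP, an inhibitor of thioredoxin and of glucose uptake, had 1819, 1786 and 1828 CPM in p21 cells, against 583, 573 and 617 CPM in mVenus cells (log2 fold change 1.61 ± 0.03, adjusted p = 4.14e-19). CITED2, a transcription cofactor induced by FOXO factors, had 70.3, 70.7 and 67.4 CPM in p21 cells, against 17.4, 18.5 and 19.9 CPM in mVenus cells. FOXO1 itself had 127, 141 and 134 CPM in p21 cells, against 51.4, 55.6 and 53.5 CPM in mVenus cells, and these 3 rose in every p21 library. FOXO3, KLF9 and the autophagosome gene MAP1LC3B rose with log2 fold changes of 0.70 ± 0.04, 1.37 ± 0.07 and 0.44 ± 0.04, and KLF6 fell with -0.68 ± 0.04.

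Cytosolic ribosomal protein genes moved little against mVenus cells, with all log2 fold changes between -0.41 and 0.42. Of 75 tested (79 listed), 28 were higher, 11 lower and 36 not called, against 28.2% higher and 28.3% lower over all genes. The number that fell was 6 without mVenus replicate 2 and 7 without p21 replicate 3. RPL13A had 965, 958 and 921 CPM in p21 cells, against 692, 718 and 719 CPM in mVenus cells (log2 fold change 0.42 ± 0.04), and RPSA, also a laminin receptor, had 241, 251 and 234 CPM in p21 cells, against 300.1, 313 and 303 CPM in mVenus cells (log2 fold change -0.34 ± 0.04). RPS6 had 531, 586 and 540.1 CPM in p21 cells, against 547, 548 and 566 CPM in mVenus cells, which overlap. Against p16 cells 72 of the 75 were lower in p21 cells and none was higher, with a median of -0.42. In that test 27.2% of all genes were called in each direction. RPS6 stood at 774, 821 and 767 CPM in p16 cells (log2 fold change -0.51 ± 0.04, adjusted p = 3.74e-10). Ribosome biogenesis genes rose in 27 and fell in 2 of 49 tested cases (50 listed, median 0.18), against 28.2% and 28.3% over all genes. Without p21 replicate 1, 4 fell. POLR1B, of RNA polymerase I, rose with a log2 fold change of 0.49 ± 0.05, and TCOF1, of the nucleolar protein treacle, fell to 43.7, 49.8 and 48.0 CPM in p21 cells, against 122, 122 and 127 CPM in mVenus cells (log2 fold change -1.39 ± 0.05).

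All 13 mRNAs of the mitochondrial genome rose, by log2 fold changes of 0.51 to 1.12 with a median of 0.84. MT-ND1, a subunit of complex I, had 3543, 3860.2 and 4309 CPM in p21 cells, against 1896, 1772 and 1723 CPM in mVenus cells (log2 fold change 1.12 ± 0.08, adjusted p = 1.34e-10). MT-CO1, of cytochrome oxidase, had 8155, 8740.5 and 9357 CPM in p21 cells, against 4914, 4663 and 4516 CPM in mVenus cells (log2 fold change 0.90 ± 0.06). The mitochondrial share of all counts moved with them, and in p16 libraries it was 6.33% to 6.91%; the part of this share in the rise of each mRNA was not tested. Of the nuclear genes of the respiratory chain, 17 rose, 12 fell and 27 did not pass among 56 tested (59 listed, median 0.01). The shares over all genes were 28.2% higher and 28.3% lower. COX4I1, of a nuclear subunit of cytochrome oxidase, had 184, 188 and 177 CPM in p21 cells, against 186, 181 and 187 CPM in mVenus cells, which overlap (adjusted p = 0.747).

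Cholesterol synthesis and uptake genes, the main targets of the transcription factor SREBP2, fell in 23 and rose in 4 of 28 tested cases (29 listed). The median was -0.85, and of all genes 28.3% fell and 28.2% rose. INSIG1, a feedback regulator that holds SREBP in the endoplasmic reticulum, had 10.8, 9.53 and 10.0 CPM in p21 cells, against 67.5, 65.5 and 71.3 CPM in mVenus cells (log2 fold change -2.76 ± 0.07, adjusted p = 1.73e-17). HMGCS1, the first committed enzyme gene, had 31.6, 31.1 and 31.7 CPM in p21 cells, against 106, 103 and 97.6 CPM in mVenus cells (log2 fold change -1.70 ± 0.06). The groups did not overlap for these, nor for FDPS, of farnesyl diphosphate synthase (log2 fold change -1.72 ± 0.04). ABCG1, a cholesterol exporter gene, was among those that rose, with 7.26, 6.93 and 5.10 CPM in p21 cells, against 1.21, 2.04 and 1.31 CPM in mVenus cells (log2 fold change 2.12 ± 0.22). Against p16 cells 21 of the 28 were lower and 3 higher in p21 cells, where 27.2% of all genes were called in each direction. HMGCS1 stood at 107, 119 and 104 CPM in p16 cells (log2 fold change -1.80 ± 0.06).

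Of fatty acid and lipid genes 9 were higher and 15 lower of 31 tested (33 listed), against 28.2% and 28.3% over all genes. Of the desaturase genes FADS2 had 6.90, 5.76 and 6.56 CPM in p21 cells, against 51.5, 53.8 and 54.5 CPM in mVenus cells (log2 fold change -3.06 ± 0.08), and SCD had 115, 106 and 109 CPM in p21 cells, against 328, 327 and 332 CPM in mVenus cells (log2 fold change -1.58 ± 0.04). FADS1 fell with a log2 fold change of -2.43 ± 0.08. These desaturases had no overlap between groups, while FASN, of fatty acid synthase, fell with a log2 fold change of -0.20 ± 0.04. LPIN1, of a phosphatidate phosphatase, rose to 421, 413 and 405 CPM in p21 cells, against 154, 159 and 170.1 CPM in mVenus cells. In glycolysis and hypoxia-responsive genes 10 rose and 12 fell of 34 tested (35 listed), against 28.2% and 28.3% over all genes. HK2, of hexokinase 2, had 52.5, 54.4 and 53.9 CPM in p21 cells, against 19.9, 19.7 and 20.0 CPM in mVenus cells (log2 fold change 1.43 ± 0.05), and LDHA had 1324, 1329 and 1329 CPM in p21 cells, against 1322, 1227 and 1285 CPM in mVenus cells (adjusted p = 0.153).

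Genes of the ATF4 programme and the unfolded protein response rose in 22 and fell in 11 of 41 tested cases (44 listed). The shares over all genes were 28.2% and 28.3%. STC2, of stanniocalcin 2, had 176, 172 and 198 CPM in p21 cells, against 22.1, 20.3 and 22.3 CPM in mVenus cells (log2 fold change 3.07 ± 0.07, adjusted p = 9.14e-19). CHAC1, which degrades glutathione, had 15.2, 14.5 and 18.4 CPM in p21 cells, against 3.30, 2.85 and 3.70 CPM in mVenus cells (log2 fold change 2.27 ± 0.14). DDIT3, of the stress factor CHOP, had 16.7, 16.1 and 18.1 CPM in p21 cells, against 4.87, 5.11 and 4.74 CPM in mVenus cells (log2 fold change 1.79 ± 0.10), with 39.6% of its exonic bases shared. All 3 were higher in every p21 library. Of genes that act in protein folding in the endoplasmic reticulum, MANF fell with a log2 fold change of -1.03 ± 0.05, PDIA4 with -0.48 ± 0.04 and HSPA5, of BiP, with -0.16 ± 0.03. The co-chaperone gene DNAJB9, chosen after its values were seen, rose with a log2 fold change of 0.65 ± 0.08. ATF4 had a log2 fold change of 0.10 ± 0.04, which did not pass without p21 replicate 1 or 3 or without mVenus replicate 1 or 3. Among NRF2 and antioxidant genes 14 of 33 tested (35 listed) rose and 7 fell, against 28.2% and 28.3% over all genes. NFE2L2, the gene of NRF2, rose with a log2 fold change of 0.18 ± 0.04. TXNRD1, chosen after its values were seen, rose with 0.89 ± 0.03. GCLC, of the catalytic subunit for glutathione synthesis, had 290.3, 294 and 298 CPM in p21 cells, against 94.9, 95.1 and 91.9 CPM in mVenus cells (log2 fold change 1.65 ± 0.05), whereas its modifier subunit gene GCLM fell with -0.64 ± 0.06 and HMOX1, of heme oxygenase 1, fell with -1.56 ± 0.18.

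Markers of other cell types were sparse but not uniform. Of 15 leukocyte markers 3 passed the filter on low counts, and the summed level of the list was 107 to 111 CPM in p21 libraries and 57.1 to 61.0 CPM in mVenus libraries. PTPRC, CD3E and TYROBP had 0 counts in the p21 libraries. CSF1R, a receptor also known in mammary epithelium, had 89.5, 84.6 and 87.0 CPM in p21 cells, against 40.3, 39.2 and 40.6 CPM in mVenus cells, and CD14 rose with a log2 fold change of 0.58 ± 0.10. ITGAX, the third tested marker, fell, with 0.220, 0.124 and 0.0637 CPM in p21 cells, against 1.31, 1.53 and 1.42 CPM in mVenus cells (log2 fold change -3.34 ± 0.56). The 11 endothelial markers summed to 11.2 to 12.7 CPM in p21 libraries and 11.8 to 13.0 CPM in mVenus libraries, with CLDN5 and EMCN at 0 counts. The 11 fibroblast markers summed to 154 to 163.5 CPM in p21 libraries and 104 to 113 CPM in mVenus libraries, with the defining collagen genes COL1A2 and COL3A1 at 0 counts in both groups. DCN had 109, 112 and 107 CPM in p21 cells, against 11.4, 9.57 and 11.2 CPM in mVenus cells (log2 fold change 3.34 ± 0.06), while COL6A3, a collagen VI chain gene, had 1.61, 1.49 and 1.15 CPM in p21 cells, against 38.0, 34.5 and 34.4 CPM in mVenus cells (log2 fold change -4.66 ± 0.14). The rise of DCN and the fall of COL6A3 lie within one list of markers, with groups apart in both. The part of any other cell type in the results above was not tested.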

How the data were processed

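Per the labels' protocols, libraries were made from poly(A) RNA with a stranded KAPA kit. Whole-number counts per gene are in the authors' deposited files; FastQC 0.11.3, HISAT2 and GRCh38.p7 come from the submitters' processing notes, and featureCounts 1.6.3 counted exons of GENCODE 29 by gene name without a strand or multimapping option, per the file headers. Bases shared by genes therefore lose their reads, and an antisense partner cannot be told apart. The authors' deposited table of p21 over mVenus gives log2 fold changes and adjusted p-values, made with DESeq2 per the submitters' processing notes.

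Counts of all 12 libraries were filtered (filterByExpr) and fitted in edgeR 4.0.16 (R 4.3.3) with TMM scaling and 1 coefficient per group, without a replicate block; the quasi-likelihood test was two-sided, with Benjamini-Hochberg adjustment over 14504 genes and a threshold of 0.05. The 12 libraries share 1 estimate of the spread. The fit was tested on simulated data. CPM use the TMM-scaled library sizes. Count ratios have exact intervals at 95% confidence, which cover counting error only. Of 1326 symbols in 37 gene lists all were found and 1194 were tested; members and lists were chosen with earlier results of these data known. Genes named were the always-listed ones, the 10 largest changes in each direction at 5 CPM or more without overlap of replicates, up to 3 per list and direction, and for p21 against p16 the 5 largest and up to 2 per list. A gene with over 30% of its exonic bases shared with another is marked. Alternatives were DESeq2 1.42.0, its size factors, upper quartile scaling, no filter on low counts, only the 6 libraries compared, a replicate block and each replicate left out. Cells carrying p16 with Torin2 entered the fit only. Some genes of the lists are not reported here.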

Additional observations from a re-analysis of the deposited data

How the results depend on the processing

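Counts of genes called for p21 against mVenus stayed within 1.5 times under every alternative: 3741 to 4648 higher and 3572 to 4301 lower, with 3741 to 3897 and 3765 to 3909 when a replicate was left out. For p21 against p16 the ranges were 3466 to 4015 higher and 3532 to 4076 lower. Of 74 list counts, 65 stayed within 1.5 times under every alternative. Without the filter on low counts, 2 cyclin-dependent kinase inhibitors, 2 genes of homologous recombination and 1 of end joining were higher, and 4 lysosomal, 2 autophagy, 6 ribosomal protein and 7 nuclear respiratory chain genes were lower. With only the 6 libraries compared, 1 gene of homologous recombination was higher and 17 ribosomal protein genes were lower, and under DESeq2 2 autophagy genes were lower. Leaving out a replicate gave 1 to 2 higher cyclin-dependent kinase inhibitors, 0 to 1 of homologous recombination and 2 to 4 of DNA damage signalling, and 2 to 4 lower autophagy, 6 to 11 ribosomal protein and 2 to 4 ribosome biogenesis genes. The cause of these shifts was not tested.

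Of 501 values for named genes, 462 kept direction and call under every alternative and 39 did not: 25 lost the call under some, 14 gained it and 1, counted also among the 25, reversed. That one was ZYX, of the focal adhesion protein zyxin, with a log2 fold change of 1.88 with all libraries, -0.42 without p21 replicate 1 and up to 2.39 without another replicate. In p21 against p16, CANX gave -2.89 with all libraries and -0.48 without p16 replicate 3, PSME2 -1.88 and -0.60, S100A7 -7.70 and -9.62 without p21 replicate 3, and SERPINB13 -7.18 and -8.00 without p21 replicate 2.

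Deviations of same-numbered p21 and mVenus libraries correlated with r of 0.0031, 0.017 and -0.013 across genes. For same-numbered p21 and p16 libraries r was 0.028, 0.036 and 0.056, against -0.047 to 0.011 for p21 and p16 libraries of different numbers. Whether the numbers mark pairs was not tested. With a replicate block 4022 genes were higher and 4051 lower for p21 against mVenus. Depth limits genes with few counts: 0 counts over the 3 p21 libraries allow up to 0.0655 CPM, and genes listed near 0 everywhere, such as TAP1 and RPS18, may be lost in counting.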

Other observations

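Long noncoding transcripts were called higher more often than lower. Of 407 tested lincRNA genes 29.7% were higher in p21 cells and 10.6% lower, and of 517 antisense RNA genes 27.5% were higher and 10.4% lower. Among 12143 protein-coding genes the shares were 29.99% higher and 31.7% lower, and over all genes 28.2% and 28.3%. It was thus mainly the share called lower that differed. Reads were counted without a strand option, so reads of an antisense gene and of the gene opposite cannot be told apart. Reads on bases that both genes hold are lost. The shares called were not tested against each other.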
